A study of Mus musculus with 8 samples.

Results

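The genes described here lie on proximal mouse chromosome 7, in the region to which the lupus susceptibility locus Sle3 maps. The list holds 48 named genes. A gene was measured where the array's annotation gives a probe set to that symbol alone, and of several such rows the one with the highest mean was taken. This gave 43 measured members among 19938 genes with a row of their own, and all 43 were among the 14953 genes above the filter on low values. Nr1h2, Fcgrt, Gpi1 and Klk1 had no row listed under the symbol, and Il4i1 shared its probe set with another gene, so these 5 have no value here. The list was chosen by map position with the log2 differences from WT in view, so these differences are a description. A model's calls against WT are counted below beside those of all genes, and support nothing. Only the difference between the lupus-prone genotypes is used as a test.

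Splenocytes of 8 C57/B6 mice, 1 array per mouse, were profiled on Affymetrix Mouse Gene 1.0 ST arrays after digestion of the spleen with collagenase and DNase. The Sle1.3/E2-2het group (3 mice) consisted of Sle1.3 mice haplodeficient for E2-2, the gene Tcf4, and the series title describes their plasmacytoid dendritic cells as non-functional. The Sle1.3 group (3 mice) is labelled as lupus mice, and the WT group (2 mice) as wild type. All 3 groups carry the same strain label, no treatment beyond the digestion is labelled, and neither ages nor the borders of the Sle intervals are given in the labels.

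Sle1, on chromosome 1, and Sle3, on proximal chromosome 7, were defined in the NZM2410 lupus strain and moved onto a C57BL/6 background by repeated backcrossing. A congenic mouse of this kind carries donor alleles of every gene inside the introgressed segment, so that a probe designed on the reference sequence can bind a donor transcript less well. On an expression array such a difference and a difference in transcript level cannot be told apart. In Sle3 mice the T cells are known to be hyperactive, a trait traced to myeloid antigen-presenting cells. E2-2 is an E protein, a basic helix-loop-helix factor that binds E boxes and is needed for the identity of plasmacytoid dendritic cells, the main producers of type I interferon.

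The 250 bases before the start are shown for 4 of the members that lay below WT on all lupus-prone arrays, and for Ercc1, a neighbour of Ercc2 whose level was near that of WT. Sequences run 5′ to 3′ on the strand of the gene and come from RefSeq (build GRCm38.p6). Capitals mark E boxes (CANNTG) and GC boxes (GGGCGG, or CCGCCC on the other strand).
Spib promoter, chr7:44532072-44532321, minus strand: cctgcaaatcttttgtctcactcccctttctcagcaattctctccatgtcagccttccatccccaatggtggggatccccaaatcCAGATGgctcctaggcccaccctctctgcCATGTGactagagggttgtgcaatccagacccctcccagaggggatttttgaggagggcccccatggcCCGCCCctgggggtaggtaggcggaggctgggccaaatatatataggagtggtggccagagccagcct
Bcl3 promoter, chr7:19822756-19823005, minus strand: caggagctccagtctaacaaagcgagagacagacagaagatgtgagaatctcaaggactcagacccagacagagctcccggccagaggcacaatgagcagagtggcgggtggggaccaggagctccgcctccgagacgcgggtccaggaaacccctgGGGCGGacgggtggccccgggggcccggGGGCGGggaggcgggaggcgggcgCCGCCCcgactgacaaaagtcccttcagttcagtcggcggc
Tgfb1 promoter, chr7:25686752-25687001, plus strand: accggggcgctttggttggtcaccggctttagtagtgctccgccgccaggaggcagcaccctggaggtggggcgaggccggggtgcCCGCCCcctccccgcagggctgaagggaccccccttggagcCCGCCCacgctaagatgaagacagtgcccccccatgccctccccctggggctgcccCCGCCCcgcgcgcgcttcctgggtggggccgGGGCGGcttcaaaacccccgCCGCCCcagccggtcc
Ercc2 promoter, chr7:19381767-19382016, plus strand: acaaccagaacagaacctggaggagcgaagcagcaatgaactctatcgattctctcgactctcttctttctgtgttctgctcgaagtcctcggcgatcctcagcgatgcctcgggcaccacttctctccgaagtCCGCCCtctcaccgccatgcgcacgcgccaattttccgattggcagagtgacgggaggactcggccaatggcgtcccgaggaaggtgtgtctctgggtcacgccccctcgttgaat
Ercc1 promoter, chr7:19344821-19345070, plus strand: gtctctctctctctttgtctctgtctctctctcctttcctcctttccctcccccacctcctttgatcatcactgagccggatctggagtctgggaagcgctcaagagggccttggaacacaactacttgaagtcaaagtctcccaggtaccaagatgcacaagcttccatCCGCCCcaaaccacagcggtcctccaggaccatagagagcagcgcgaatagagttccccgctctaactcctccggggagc
The Spib promoter held 2 E boxes and 1 GC box. Those of Bcl3 and Tgfb1 held no E box, with 3 and 5 GC boxes. The Ercc2 and Ercc1 promoters, which are neighbours on the chromosome, each held 1 GC box and no E box.

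Both replicate 3 arrays of the lupus-prone genotypes stood apart from the other 6. Their lowest intensities were 11.2 (Sle1.3/E2-2het) and 10.9 (Sle1.3), against 4.57 to 5.11 on the other arrays, and their median log2 intensities were both 6.17, against 5.83 to 5.95. The level of Tcf4 was 8.18, 8.13 and 9.25 in Sle1.3/E2-2het and 8.67, 8.63 and 9.06 in Sle1.3, against 9.02 and 8.80 in WT. Thus Tcf4 was lower on the arrays labelled Sle1.3/E2-2het replicates 1 and 2, while the library labelled Sle1.3/E2-2het replicate 3 had the highest value of all. Xist and the Y-linked genes placed that library and all 3 Sle1.3 arrays with females and the rest with males, and so went against 1 label, that of Sle1.3 replicate 3 (labelled male). Sex and genotype therefore cannot be told apart in Sle1.3 against WT. By contrast, the arrays labelled Sle1.3/E2-2het replicates 1 and 2 and both WT arrays were all male. Between the lupus-prone genotypes, these Sle1.3/E2-2het arrays were male and all Sle1.3 arrays female. Without both replicate 3 arrays, sex and genotype coincided there. Because the tissue was measured in bulk, fewer cells of a type and less RNA per cell cannot be told apart.

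Against WT, the members leaned to lower values in both lupus-prone genotypes. A log2 difference below 0 was found for 36 of the 43 members in Sle1.3/E2-2het (83.7%, beside 50.5% of all genes tested). For Sle1.3 it was found for 33 (76.7%, beside 47.5%), and 32 members were below 0 in both. All genes tested were also divided into 4 equal groups by mean level. Of the 23 members in the highest group, 82.6% in Sle1.3/E2-2het and 73.9% in Sle1.3 were below 0. Of all genes in that group, 77.6% and 68.5% were. In limma over all genes, Slc1a5, Spib, Bcl3, Tgfb1, Apoe, Nup62, Ercc2 and Relb had an adjusted p below 0.05 in both genotypes (here, called), and Strn4 in Sle1.3/E2-2het as well. The counts were 9 of 43 lower and 0 higher for Sle1.3/E2-2het, beside 3.74% lower and 3.46% higher among all genes tested. For Sle1.3 they were 8 lower and 0 higher, beside 3.22% lower and 2.66% higher among all genes. Since the list was chosen with these contrasts known, the calls describe the choice and nothing is read from them. The members' median log2 difference was -0.45 for Sle1.3/E2-2het and -0.30 for Sle1.3, beside -0.0059 and 0.03 over all genes tested.

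**Figure D1:**
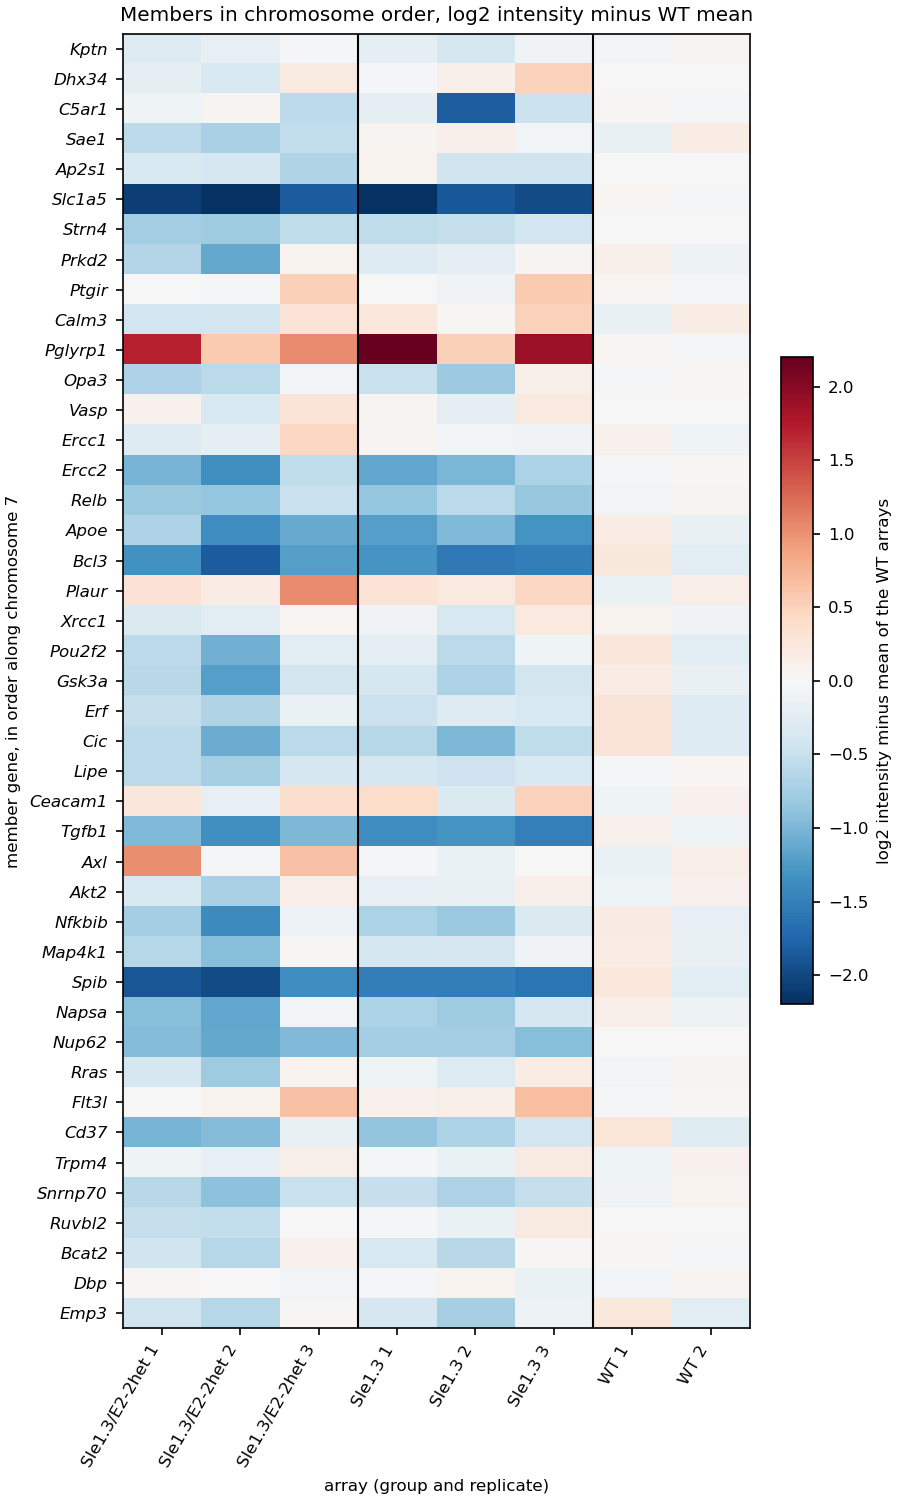
log2 intensity of the 43 measured members (rows, in order along chromosome 7) on each of the 8 arrays (columns), minus the mean of the WT arrays. Slc1a5, Spib, Bcl3 and Tgfb1 are dark blue on all 6 arrays of the lupus-prone genotypes, and Pglyrp1 is red on all 6.

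The arrays were also compared by overlap, with no model. In 13 members all 6 lupus-prone arrays lay below both WT arrays (30.2% of members, beside 18.6% of all genes tested), and in 2 members, Pglyrp1 and Plaur, all lay above (4.65%, beside 16.3% of all genes). The 13 were the 9 called in Sle1.3/E2-2het and Gsk3a, Cic, Lipe and Snrnp70. These counts rest on the same contrasts. Marker genes of other cells differed on the same arrays. The erythroid markers (4 of 7 measured) summed to 575 to 1507 in Sle1.3/E2-2het and 229 to 403 in Sle1.3, against 212 to 251 in WT, with 4 and 1 of them called higher. The cell division markers (5 of 6 measured) summed to 1472 to 1964 in Sle1.3/E2-2het and 1942 to 3199 in Sle1.3, against 876 to 891 in WT, with 2 and 5 called higher. The platelet markers (4 of 5 measured) summed to 825 to 1158 in Sle1.3/E2-2het and 1236 to 1924 in Sle1.3, against 524 to 677 in WT, with 0 and 3 called higher. The natural killer cell markers, all 6 measured, summed to 660 to 1034 in Sle1.3/E2-2het and 454 to 578 in Sle1.3, against 709 to 922 in WT. They did not share a direction: of the 5 above the filter, Eomes was called lower in both genotypes and Gzma higher in Sle1.3/E2-2het. The part of all these markers in the members' values was not tested.

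The counts of calls moved with single arrays and with the treatment of the array sets. The number of members called lower in Sle1.3/E2-2het was 1 without WT replicate 1 or without WT replicate 2 (0.0401% and 0.0134% of all genes), 5 without the array labelled Sle1.3/E2-2het replicate 2 (0.796%) and 20 without replicate 3 (12.8%). In Sle1.3 it was 1 without WT replicate 1 (0.0268%), 0 without WT replicate 2 (0.00669%) and 4 without Sle1.3 replicate 1 (0.515%). With the replicate number as a block, 27 members were called lower and 1 higher in Sle1.3/E2-2het (27.4% and 12.8% of all genes), and 21 lower and 1 higher in Sle1.3 (20.3% and 9.19% of all genes). The block added Pou2f2, Nfkbib, Cic, Cd37, Emp3, Map4k1, Gsk3a, Bcat2, Lipe, Opa3, Snrnp70 and Napsa in both genotypes, Strn4 in Sle1.3, and Erf, Akt2, Prkd2, Rras, Ruvbl2 and Sae1 in Sle1.3/E2-2het, all lower, and Pglyrp1 was the member called higher in both. A block for the array set, replicate 3 against the rest, gave 27 lower and 0 higher in Sle1.3/E2-2het (23.4% and 10.7% of all genes) and 18 lower and 1 higher, Pglyrp1, in Sle1.3 (16.5% and 7.46%). Without both replicate 3 arrays, 26 members were lower in Sle1.3/E2-2het (beside 23.4% lower and 10.6% higher among all genes) and 15 in Sle1.3 (10.7% and 5.16%), with none higher in either. With the labelled sex in the fit, 5 members were lower in Sle1.3/E2-2het (1.58% lower and 1.71% higher among all genes). In Sle1.3 there were 4 (0.803% and 0.528%). The label of Sle1.3 replicate 3 goes against its Xist and Y-linked genes, so that fit does not adjust for the sex seen on the arrays. Slc1a5, the gene with the largest difference, was the only member called without WT replicate 1 in both genotypes, and without WT replicate 2 in Sle1.3/E2-2het. These fits leave 1 WT array, which is assumed to vary like the arrays of the other groups.

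The level of expression moved with these differences over the whole array. Among all genes tested, divided into 4 equal groups by mean level, the group with the lowest level had a median log2 difference from WT of 0.32 in Sle1.3/E2-2het and 0.27 in Sle1.3, and the group with the highest level had -0.27 and -0.17. Members were mostly in the upper part of this range: their median level was 7.83, against 6.59 for all genes tested, and 23 of the 43 fell in the highest group. In that group the members' median was -0.61 in Sle1.3/E2-2het and -0.40 in Sle1.3, while 53 other genes of the same chromosomal window in the same group had medians of -0.19 and -0.04. Centring each array on its median shifted the median of all genes to -0.17 in Sle1.3/E2-2het and -0.10 in Sle1.3, and that of the members to -0.61 and -0.43. Under that centring 22.4% of all genes were lower and 5.27% higher in Sle1.3/E2-2het, and 12.5% lower and 4.28% higher in Sle1.3. Under quantile normalization the members' medians were -0.34 and -0.26. The WT arrays also had a wider spread of log2 intensities, with interquartile ranges of 2.77 and 2.97, against 2.41 to 2.57 on the lupus-prone arrays. The part of expression level and of this spread in the members' differences was not tested.

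**Figure D2:**
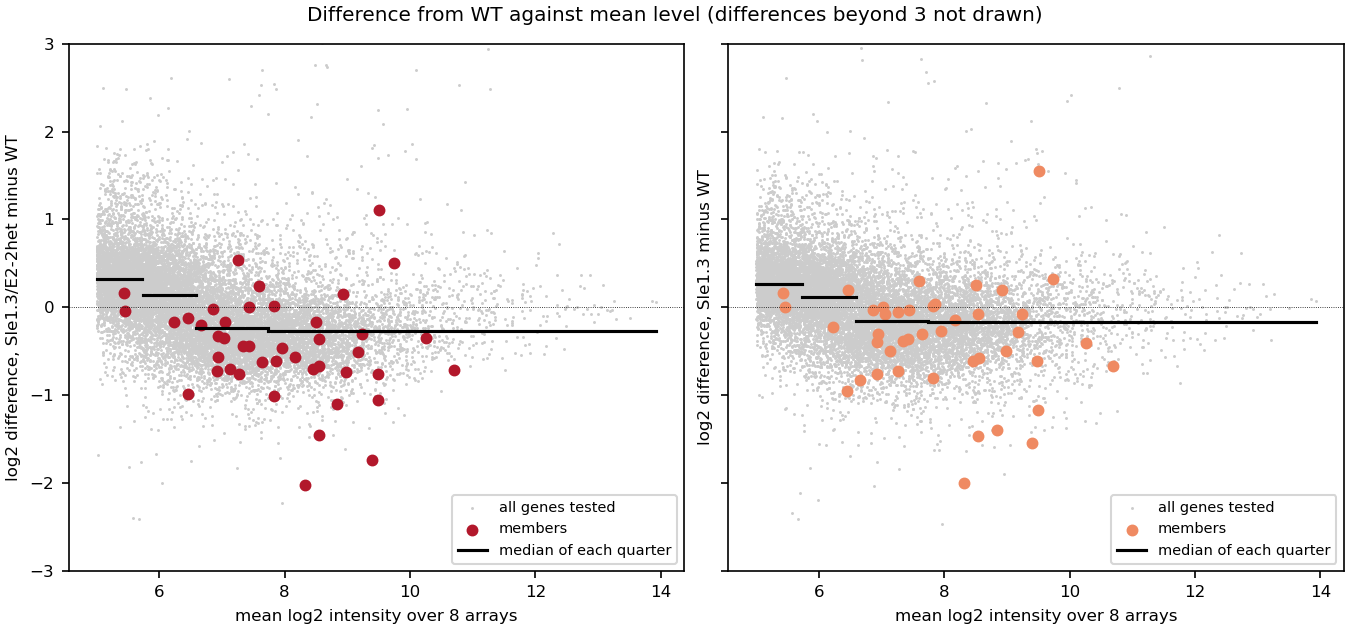
log2 difference from WT against mean log2 intensity over the 8 arrays, for Sle1.3/E2-2het (left) and Sle1.3 (right). Grey points are all genes tested, coloured points the 43 members, and black lines the median of each of 4 equal groups of genes by level, which runs from 0.32 to -0.27 on the left and from 0.27 to -0.17 on the right.

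Among transcription factors and regulators, all 8 measured members lay below WT on average in both genotypes. Of all genes tested, 50.5% did in Sle1.3/E2-2het and 47.5% in Sle1.3. In 4 of the 8, Spib, Bcl3, Relb and Cic, all 6 lupus-prone arrays lay below both WT arrays. The group's median log2 difference was -0.74 in Sle1.3/E2-2het and -0.67 in Sle1.3. Spib is an Ets-family factor of B cells and plasmacytoid dendritic cells. Its log2 intensities were 8.76, 8.67 and 9.27 in Sle1.3/E2-2het and 9.12, 9.11 and 9.03 in Sle1.3, against 10.86 and 10.40 in WT. All 6 arrays of the lupus-prone genotypes were well below both WT arrays, and the differences were -1.73 (SE 0.22) for Sle1.3/E2-2het minus WT and -1.55 (SE 0.22) for Sle1.3 minus WT, or 0.300 and 0.342 times the WT level on the linear scale. Bcl3 encodes an atypical IκB protein that acts with NF-κB in the nucleus. Its values were 8.31, 7.82 and 8.42 in Sle1.3/E2-2het and 8.34, 8.07 and 8.12 in Sle1.3, against 9.89 and 9.39 in WT. Again the groups did not overlap, with differences of -1.46 (SE 0.23) for Sle1.3/E2-2het minus WT and -1.46 (SE 0.23) for Sle1.3 minus WT.

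Relb, the NF-κB subunit of the alternative pathway, had 6.66, 6.63 and 6.99 in Sle1.3/E2-2het and 6.63, 6.89 and 6.66 in Sle1.3, against 7.43 and 7.54 in WT. Each lupus-prone array was below both WT arrays, by -0.72 (SE 0.19) for Sle1.3/E2-2het minus WT and -0.76 (SE 0.19) for Sle1.3 minus WT. Nfkbib, which encodes the inhibitor IκB beta, had 9.24, 8.60 and 9.88 in Sle1.3/E2-2het and 9.30, 9.18 and 9.69 in Sle1.3, against 10.19 and 9.81 in WT. The library labelled Sle1.3/E2-2het replicate 3 reached above WT replicate 2, so the groups overlapped, and the differences were -0.76 (SE 0.32) for Sle1.3/E2-2het minus WT and -0.61 (SE 0.32) for Sle1.3 minus WT. Cic, encoding the repressor Capicua, had 7.24, 6.73 and 7.23 in Sle1.3/E2-2het and 7.20, 6.84 and 7.26 in Sle1.3, against 8.10 and 7.54 in WT. Its 6 lupus-prone values were below both WT values, while the WT arrays lay far apart, and the differences were -0.75 (SE 0.24) for Sle1.3/E2-2het minus WT and -0.72 (SE 0.24) for Sle1.3 minus WT.

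The remaining factors differed less from WT. Pou2f2, a POU-domain factor of B cells that binds the octamer motif, had differences of -0.62 and -0.30, and Erf, an Ets-domain repressor, -0.45 and -0.36, both in the order Sle1.3/E2-2het and Sle1.3. Dbp, a clock-controlled factor, was among the members nearest to WT, with 6.90, 6.88 and 6.81 in Sle1.3/E2-2het and 6.84, 6.96 and 6.73 in Sle1.3, against 6.82 and 6.94 in WT. Its differences were -0.01 (SE 0.17) for Sle1.3/E2-2het minus WT and -0.03 (SE 0.17) for Sle1.3 minus WT. The B cell markers, of which 6 of 7 were measured and none was near the lower end of the scale, had summed linear intensities of 9265 to 13449 in Sle1.3/E2-2het, 10303 to 11921 in Sle1.3 and 11571 to 14225 in WT. Of these, Fcer2a was called lower in Sle1.3. The 6 plasmacytoid dendritic cell markers summed to 597 to 727 in Sle1.3/E2-2het, 560 to 704 in Sle1.3 and 692 to 753 in WT, with Ccr9 called lower in both genotypes and Siglech in Sle1.3. The 6 conventional dendritic cell markers summed to 935 to 1068 in Sle1.3/E2-2het, 769 to 850 in Sle1.3 and 913 to 1357 in WT. Of these, Cd209a was called lower in Sle1.3. What these cells contribute to the values of Spib, Relb and Pou2f2 was not tested.

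**Figure D3:**
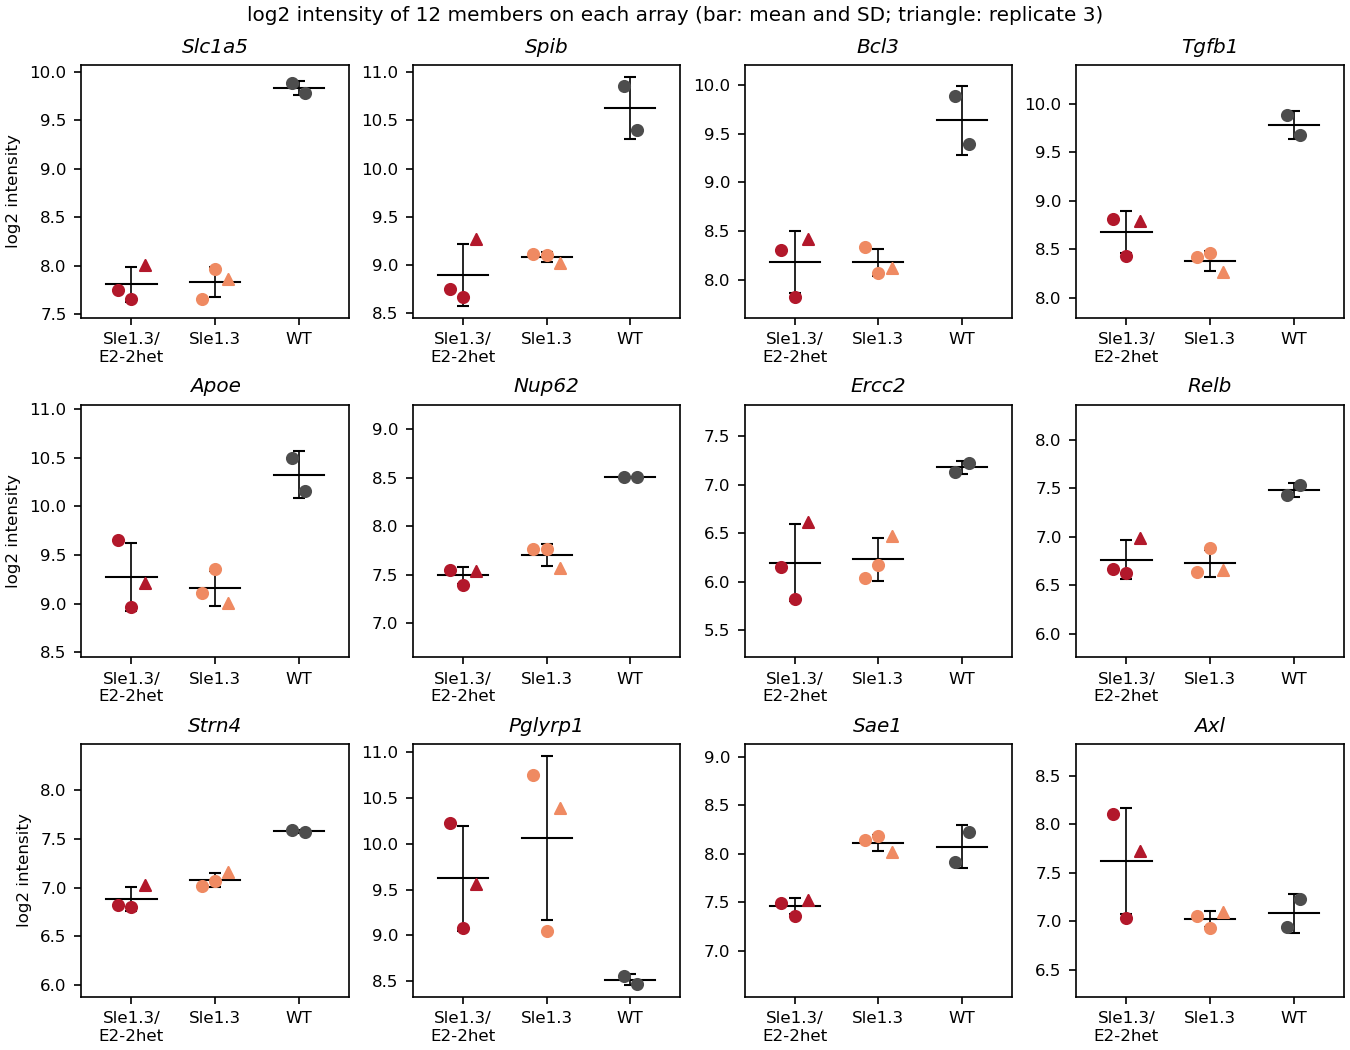
log2 intensity of 12 members on each array, with Sle1.3/E2-2het, Sle1.3 and WT from left to right, each panel on its own range of levels. Horizontal lines are group means with bars of 1 SD, and triangles mark replicate 3. For Slc1a5, Spib, Bcl3, Tgfb1, Apoe, Nup62, Ercc2, Relb and Strn4 all 6 lupus-prone arrays lie below both WT arrays, for Pglyrp1 all lie above, and for Sae1 only the Sle1.3/E2-2het arrays lie below.

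Among the 5 measured members of metabolism, transport and lipid carriage, Slc1a5, Apoe and Lipe lay below both WT arrays on all 6 lupus-prone arrays. Slc1a5 encodes a neutral amino acid transporter that carries glutamine into dividing cells. It had 7.75, 7.66 and 8.01 in Sle1.3/E2-2het and 7.66, 7.97 and 7.86 in Sle1.3, against 9.88 and 9.78 in WT. The arrays of both lupus-prone genotypes clustered about 2 log2 units below WT, with differences of -2.02 (SE 0.18) for Sle1.3/E2-2het minus WT and -2.002 (SE 0.18) for Sle1.3 minus WT, or 0.246 and 0.2496 times the WT level. This was the largest difference of any member in either genotype, and among the males alone of the array set without replicate 3 it was -2.12 for Sle1.3/E2-2het minus WT. Apoe, the lipid carrier apolipoprotein E made in the spleen by macrophages, had 9.65, 8.97 and 9.21 in Sle1.3/E2-2het and 9.11, 9.36 and 9.01 in Sle1.3, against 10.50 and 10.16 in WT. Both genotypes were below WT without overlap, by -1.05 (SE 0.23) for Sle1.3/E2-2het minus WT and -1.17 (SE 0.23) for Sle1.3 minus WT. Lipe, hormone-sensitive lipase, had differences of -0.56 and -0.39 in Sle1.3/E2-2het and Sle1.3. Bcat2, the mitochondrial branched-chain aminotransferase, and Opa3, a mitochondrial protein, were lower on average by 0.32 and 0.44 in Sle1.3/E2-2het. The monocyte and macrophage markers (7 of 8 measured) had summed intensities of 1944 to 2972 in Sle1.3/E2-2het, 1714 to 2602 in Sle1.3 and 1060 to 1601 in WT. Of the 7, 4 were called higher in Sle1.3/E2-2het and 1, C1qb, in Sle1.3, and their median differences were 1.01 and 0.12. Their part in the Apoe values was not tested.

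The 10 measured ligands, receptors and surface proteins did not share a direction. Their median log2 difference was 0.15 in Sle1.3/E2-2het and 0.05 in Sle1.3, and Tgfb1 was the one with all 6 lupus-prone arrays below both WT arrays. Tgfb1 encodes transforming growth factor beta 1, an immunoregulatory cytokine. Its values were 8.81, 8.43 and 8.79 in Sle1.3/E2-2het and 8.42, 8.46 and 8.27 in Sle1.3, against 9.88 and 9.68 in WT. The groups did not overlap with WT, and the differences were -1.10 (SE 0.19) for Sle1.3/E2-2het minus WT and -1.40 (SE 0.19) for Sle1.3 minus WT. Pglyrp1, a peptidoglycan recognition protein of neutrophil granules, was the member with the largest difference above WT, with 10.23, 9.09 and 9.56 in Sle1.3/E2-2het and 10.75, 9.05 and 10.39 in Sle1.3, against 8.56 and 8.47 in WT. Its values spread widely within each lupus-prone genotype while the WT arrays lay close together, and the differences were 1.11 (SE 0.44) for Sle1.3/E2-2het minus WT and 1.55 (SE 0.44) for Sle1.3 minus WT. All 7 neutrophil markers were measured and were high on the same arrays, summing to 5740 to 17049 in Sle1.3/E2-2het, 5361 to 18859 in Sle1.3 and 1041 to 1795 in WT, and 6 and 7 of them were called higher in Sle1.3/E2-2het and Sle1.3. Their part in the Pglyrp1 values was not tested.

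C5ar1, the receptor for the complement fragment C5a on myeloid cells, had 6.96, 7.10 and 6.48 in Sle1.3/E2-2het and 6.85, 5.23 and 6.58 in Sle1.3, against 7.07 and 7.02 in WT. Sle1.3 replicate 2 was far below the others, and the differences were -0.20 (SE 0.39) for Sle1.3/E2-2het minus WT and -0.83 (SE 0.39) for Sle1.3 minus WT. Cd37, a tetraspanin of mature B cells, had 10.20, 10.25 and 11.06 in Sle1.3/E2-2het and 10.34, 10.51 and 10.80 in Sle1.3, against 11.48 and 10.95 in WT. The library labelled Sle1.3/E2-2het replicate 3 lay above WT replicate 2, and the differences were -0.71 (SE 0.28) for Sle1.3/E2-2het minus WT and -0.66 (SE 0.28) for Sle1.3 minus WT. Plaur, the urokinase receptor, was the other member with all 6 lupus-prone arrays above both WT arrays, with differences of 0.51 and 0.32 in Sle1.3/E2-2het and Sle1.3. Flt3l, the growth factor of dendritic cells, stood at 0.24 and 0.30, Ceacam1, an adhesion and inhibitory receptor, at 0.15 and 0.20, Ptgir, the prostacyclin receptor, at 0.16 and 0.16 and Emp3, a small membrane protein, at -0.35 and -0.40.

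Among the 9 kinases, GTPases and other signalling members, Strn4 and Gsk3a lay below both WT arrays on all 6 lupus-prone arrays. The group's median was -0.36 in Sle1.3/E2-2het and -0.08 in Sle1.3. Strn4 encodes a striatin-family scaffold of a phosphatase and kinase complex, and its values were 6.82, 6.80 and 7.02 in Sle1.3/E2-2het and 7.02, 7.06 and 7.16 in Sle1.3, against 7.59 and 7.57 in WT. Neither genotype overlapped with WT, and the differences were -0.70 (SE 0.17) for Sle1.3/E2-2het minus WT and -0.50 (SE 0.17) for Sle1.3 minus WT. Gsk3a, a glycogen synthase kinase, had 8.84, 8.24 and 9.04 in Sle1.3/E2-2het and 9.05, 8.76 and 9.04 in Sle1.3, against 9.60 and 9.29 in WT. Its WT arrays lay further apart than those of Strn4, and the differences were -0.74 (SE 0.24) for Sle1.3/E2-2het minus WT and -0.50 (SE 0.24) for Sle1.3 minus WT.

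Vasp, which regulates actin filaments, and Trpm4, a calcium-activated cation channel, were nearest to WT. Vasp had 7.90, 7.48 and 8.10 in Sle1.3/E2-2het and 7.86, 7.60 and 8.03 in Sle1.3, against 7.80 and 7.82 in WT, with differences of 0.01 (SE 0.22) for Sle1.3/E2-2het minus WT and 0.02 (SE 0.22) for Sle1.3 minus WT. Trpm4 had 5.38, 5.30 and 5.61 in Sle1.3/E2-2het and 5.43, 5.33 and 5.67 in Sle1.3, against 5.38 and 5.57 in WT, with differences of -0.05 (SE 0.19) for Sle1.3/E2-2het minus WT and 0.00 (SE 0.19) for Sle1.3 minus WT. In both genes the WT values lay within the range of the lupus-prone arrays. For the remaining 5, the differences in Sle1.3/E2-2het and Sle1.3 were -0.56 and -0.15 for Prkd2, a protein kinase D, -0.51 and -0.28 for Map4k1, a kinase that restrains lymphocyte receptor signalling, -0.36 and -0.08 for Rras, a small GTPase, -0.30 and -0.08 for Akt2, a kinase of insulin signalling, and -0.17 and 0.25 for Calm3, a calmodulin gene. Akt2 alone had 2 rows, and the row not used read 8.27, 7.85 and 8.50 in Sle1.3/E2-2het and 8.26, 8.19 and 8.42 in Sle1.3, against 8.37 and 8.51 in WT, with the same order of group means.

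The 3 DNA repair genes differed from each other. Ercc2, a helicase of the transcription and repair factor TFIIH, had 6.15, 5.83 and 6.62 in Sle1.3/E2-2het and 6.04, 6.17 and 6.48 in Sle1.3, against 7.13 and 7.23 in WT. Its lupus-prone values were below both WT values on every array, by -0.98 (SE 0.24) for Sle1.3/E2-2het minus WT and -0.95 (SE 0.24) for Sle1.3 minus WT, or 0.506 and 0.518 times the WT level. Ercc1, part of a nuclease of the same repair pathway, had 7.17, 7.26 and 7.91 in Sle1.3/E2-2het and 7.51, 7.40 and 7.37 in Sle1.3, against 7.54 and 7.36 in WT. Here the groups overlapped and the differences were 0.00 (SE 0.23) for Sle1.3/E2-2het minus WT and -0.03 (SE 0.23) for Sle1.3 minus WT. Xrcc1, a scaffold of single-strand break repair, stood at -0.17 and -0.08 in Sle1.3/E2-2het and Sle1.3.

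Of the 7 members of the RNA, nuclear pore, chromatin, SUMO and endocytosis machinery, Nup62 and Snrnp70 lay below both WT arrays on all 6 lupus-prone arrays. Nup62 encodes a protein of the central channel of the nuclear pore, and had 7.55, 7.39 and 7.54 in Sle1.3/E2-2het and 7.77, 7.76 and 7.57 in Sle1.3, against 8.51 and 8.51 in WT. The WT arrays were nearly equal and every lupus-prone array was below them, by -1.02 (SE 0.17) for Sle1.3/E2-2het minus WT and -0.81 (SE 0.17) for Sle1.3 minus WT. Snrnp70, a protein of the spliceosome, had differences of -0.66 and -0.57. Ruvbl2, an ATPase of chromatin remodelling complexes, had 6.64, 6.62 and 7.16 in Sle1.3/E2-2het and 7.11, 7.01 and 7.37 in Sle1.3, against 7.15 and 7.17 in WT, which placed Sle1.3 at the WT level, with a difference of 0.00. Ap2s1, a subunit of the clathrin adaptor of endocytosis, stood at -0.46 and -0.27, Kptn, an actin-binding protein, at -0.17 and -0.23, and Dhx34, an RNA helicase of nonsense-mediated decay, at -0.12 and 0.19. The only measured protease, Napsa, an aspartic protease, stood at -0.71 and -0.62.

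Along the chromosome, the called members lay among genes most of which were not called. Between Kptn, the most proximal member, and Emp3, the most distal, RefSeq's gene order holds 422 genes tested here, of which 379 were not members. Among those 379, 13 were called lower and 9 higher in Sle1.3/E2-2het, and 10 lower and 8 higher in Sle1.3, which are 3.43% and 2.37%, and 2.64% and 2.11%. Their median log2 difference from WT was 0.10 in Sle1.3/E2-2het and 0.09 in Sle1.3, with a median level of 6.20, and the rest of chromosome 7 (871 genes) had 0.13 and 0.11. The other genes of the window therefore did not have the lower median of the members, and their median level was also lower than that of the members.

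**Figure D4:**
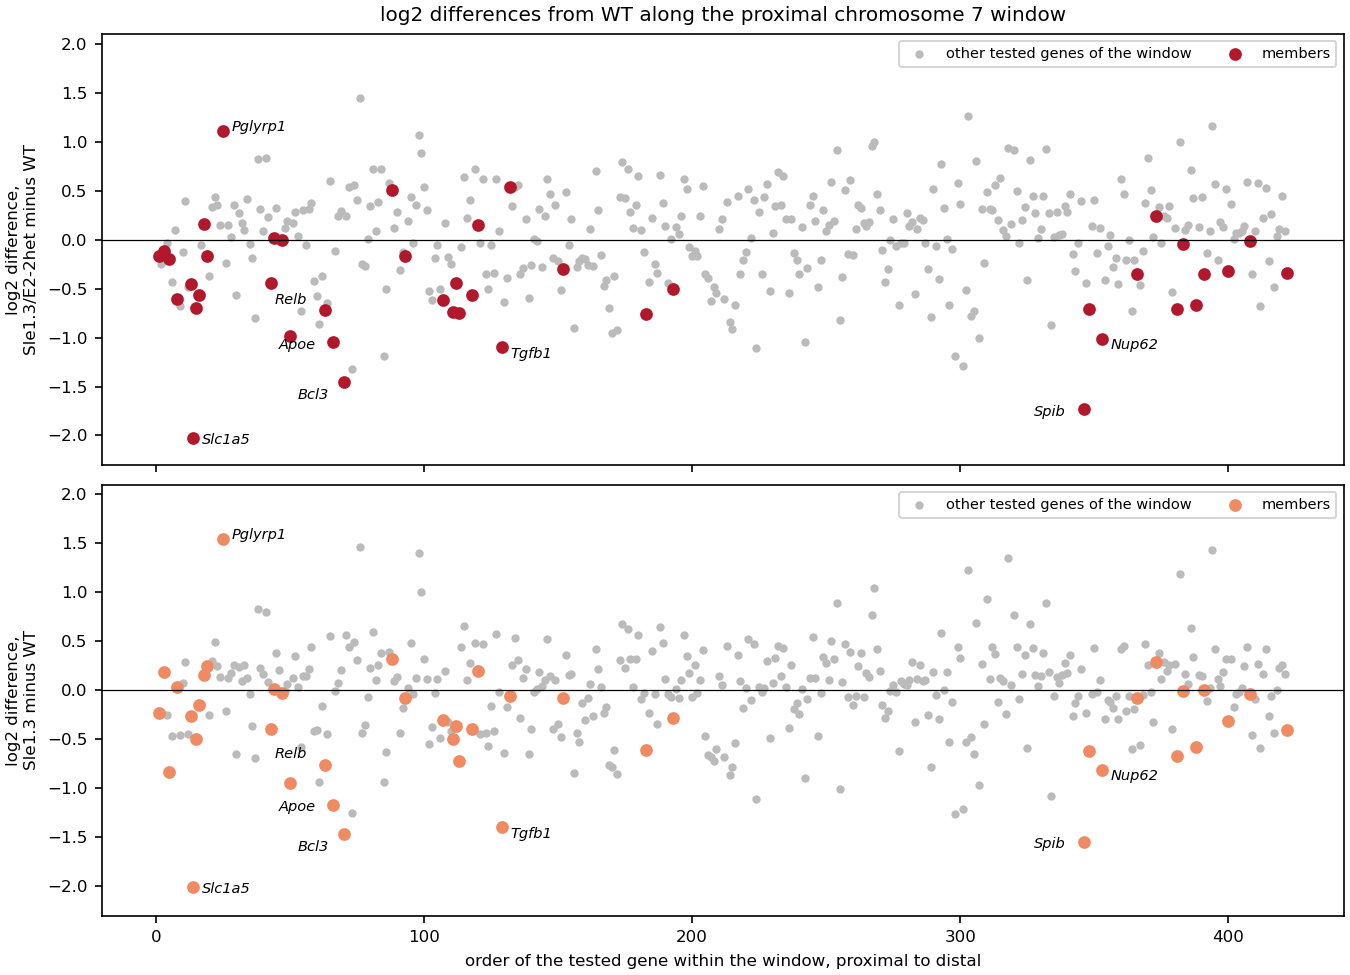
log2 difference from WT for the 422 tested genes of the chromosome 7 window in their order from proximal to distal, for Sle1.3/E2-2het (top) and Sle1.3 (bottom). Coloured points are members and grey points the other 379 genes. Slc1a5, Ercc2, Relb, Apoe, Bcl3 and Tgfb1 lie in the proximal part and Spib and Nup62 in the distal part, among grey points on both sides of 0.

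Of the 379 neighbours, 63 had all 6 lupus-prone arrays below both WT arrays and 58 had all above. Among all genes tested the shares were 18.6% and 16.3%, both above those of the neighbours. The lowest 5 of these neighbours were Pvr, AI987944, Zfp619, Alkbh6 and Kcnn4, and the highest 5 were Vmn1r174, Dhdh, Vmn2r-ps54, Cd177 and Siglece. Pvr, a nectin-like adhesion protein that is a ligand of natural killer and T cell receptors, had 7.08, 7.06 and 7.51 in Sle1.3/E2-2het and 7.14, 7.55 and 7.16 in Sle1.3, against 8.44 and 8.63 in WT. Its differences were -1.32 (SE 0.21) for Sle1.3/E2-2het minus WT and -1.25 (SE 0.21) for Sle1.3 minus WT. Kcnn4, a calcium-activated potassium channel of lymphocytes, had 7.48, 7.39 and 7.84 in Sle1.3/E2-2het and 7.84, 7.98 and 7.68 in Sle1.3, against 8.74 and 8.78 in WT, with differences of -1.19 and -0.93. Zfp619, a zinc finger gene, stood at -1.19 and -1.26 in Sle1.3/E2-2het and Sle1.3, AI987944 at -1.29 and -1.21 and Alkbh6, of the AlkB family, at -1.11 and -1.11. Upwards, Cd177, a surface protein of neutrophils, had 8.22, 7.06 and 7.31 in Sle1.3/E2-2het and 8.20, 7.02 and 8.38 in Sle1.3, against 6.61 and 6.32 in WT. As for Pglyrp1, replicate 1 was highest in Sle1.3/E2-2het and replicate 2 was lowest in both genotypes. Dhdh, a dihydrodiol dehydrogenase, stood at 1.16 and 1.44, and Siglece, a sialic acid-binding receptor of myeloid cells, at 0.94 and 1.35.

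Between the lupus-prone genotypes, which differ in E2-2 by label and which the rule did not name, no member was called. The count was 0 of 43, beside 0.0134% of all genes lower and 0% higher in limma (Benjamini-Hochberg over 14953 genes). By Xist and the Y-linked genes the genotypes also differed in sex, except for the female library labelled Sle1.3/E2-2het replicate 3. Sex and genotype can be separated only through that library, whose Tcf4 was the highest of all arrays. At an unadjusted p under 0.05 there were 2 of 43, Sae1 and Axl (4.65%, beside 4.18% of all genes tested), and their 95% confidence intervals were also the only ones that left out 0. The members' median log2 difference for Sle1.3/E2-2het minus Sle1.3 was -0.05, beside 0.0017 over all genes tested, and it was 0.02 without the array labelled Sle1.3/E2-2het replicate 2 and -0.23 without replicate 3. Of the 43 differences 32 were below 0 (74.4%, beside 49.5% of all genes tested). Among the 23 members in the group with the highest level 18 were below 0 (78.3%), beside 67.6% of all genes in that group. Standard errors ran from 0.15 to 0.39, so that the arrays could place a member's difference only within such margins.

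Sae1, a subunit of the enzyme that activates SUMO, had the smallest p of the members, with 7.50, 7.36 and 7.53 in Sle1.3/E2-2het and 8.14, 8.18 and 8.02 in Sle1.3, against 7.92 and 8.23 in WT. All 3 Sle1.3/E2-2het arrays were below every array of the other groups, and the library labelled replicate 3 lay with the others. The difference for Sle1.3/E2-2het minus Sle1.3 was -0.65 (SE 0.16, 95% confidence interval -0.995 to -0.30), with an adjusted p of 0.337 in limma. With the replicate number as a block the adjusted p was 0.0222, with a block for the array set 0.0469 and without both replicate 3 arrays 0.100, over a range of 0.0222 to 1.00 for 18 alternatives, in all of which the difference stayed between -0.73 and -0.60. Sae1 was thus the 1 member called with the replicate block (beside 1.2% of all genes lower and 0.548% higher) and with the array set block (0.461% and 0.154%), and none was called without both replicate 3 arrays (0.388% and 0.14%) or under median centring (0.154% and 0.0201%).

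Axl, a receptor tyrosine kinase through which phagocytes clear dying cells, had 8.11, 7.03 and 7.73 in Sle1.3/E2-2het and 7.05, 6.93 and 7.09 in Sle1.3, against 6.94 and 7.23 in WT. On the arrays labelled Sle1.3/E2-2het replicates 1 and 3 it was above every other array, while replicate 2 lay among the other groups. The difference was 0.60 (SE 0.24, 95% confidence interval 0.06 to 1.13), with an adjusted p of 1.00 in limma and 0.187 with the replicate block. It was 0.36 without replicate 1 and 0.89 without replicate 2 of Sle1.3/E2-2het. Of the 7 monocyte and macrophage markers measured none was called, and their differences for Sle1.3/E2-2het minus Sle1.3 ran from -0.38 (C1qb) to 1.09 (Vcam1), with a median of 0.31. Their part in the Axl values was not tested.

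The next members by p were Ruvbl2, Calm3 and C5ar1, each with an adjusted p of 1.00 in limma. Ruvbl2 differed by -0.36 (SE 0.19, 95% confidence interval -0.77 to 0.06). Calm3 had 8.06, 8.08 and 8.78 in Sle1.3/E2-2het and 8.71, 8.50 and 8.98 in Sle1.3, against 8.31 and 8.64 in WT, a difference of -0.42 (SE 0.22, 95% confidence interval -0.91 to 0.07) in which the groups overlapped. For C5ar1 the difference was 0.63 (SE 0.35, 95% confidence interval -0.15 to 1.40), and without Sle1.3 replicate 2 it was 0.13. All 9 signalling members had differences below 0, with a group median of -0.23, while the 10 ligands, receptors and surface proteins had a median of 0.03. The median level of the 9 was 8.51. Of all genes tested 49.5% were below 0, and of those in the group with the highest level 67.6%.

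For the 8 members called lower in both genotypes against WT, the difference between the genotypes ran from -0.21 (Nup62) to 0.30 (Tgfb1), and the bounds of their 95% confidence intervals ran from -0.62 to 0.66. Nup62 was the other member whose Sle1.3/E2-2het arrays all lay below the Sle1.3 arrays, at -0.21 (SE 0.15, 95% confidence interval -0.54 to 0.12), so 2 members did not overlap in that direction (4.65%, beside 4.33% of all genes) and none did in the other (beside 3.04%). Slc1a5 differed by -0.02 (SE 0.16, 95% confidence interval -0.38 to 0.34) and Spib by -0.19 (SE 0.20, 95% confidence interval -0.62 to 0.25). Because these 8 members were picked for lying below WT in both genotypes, a small difference between the genotypes is favoured by the choice. Nothing is read about E2-2 from these intervals.

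**Figure D5:**
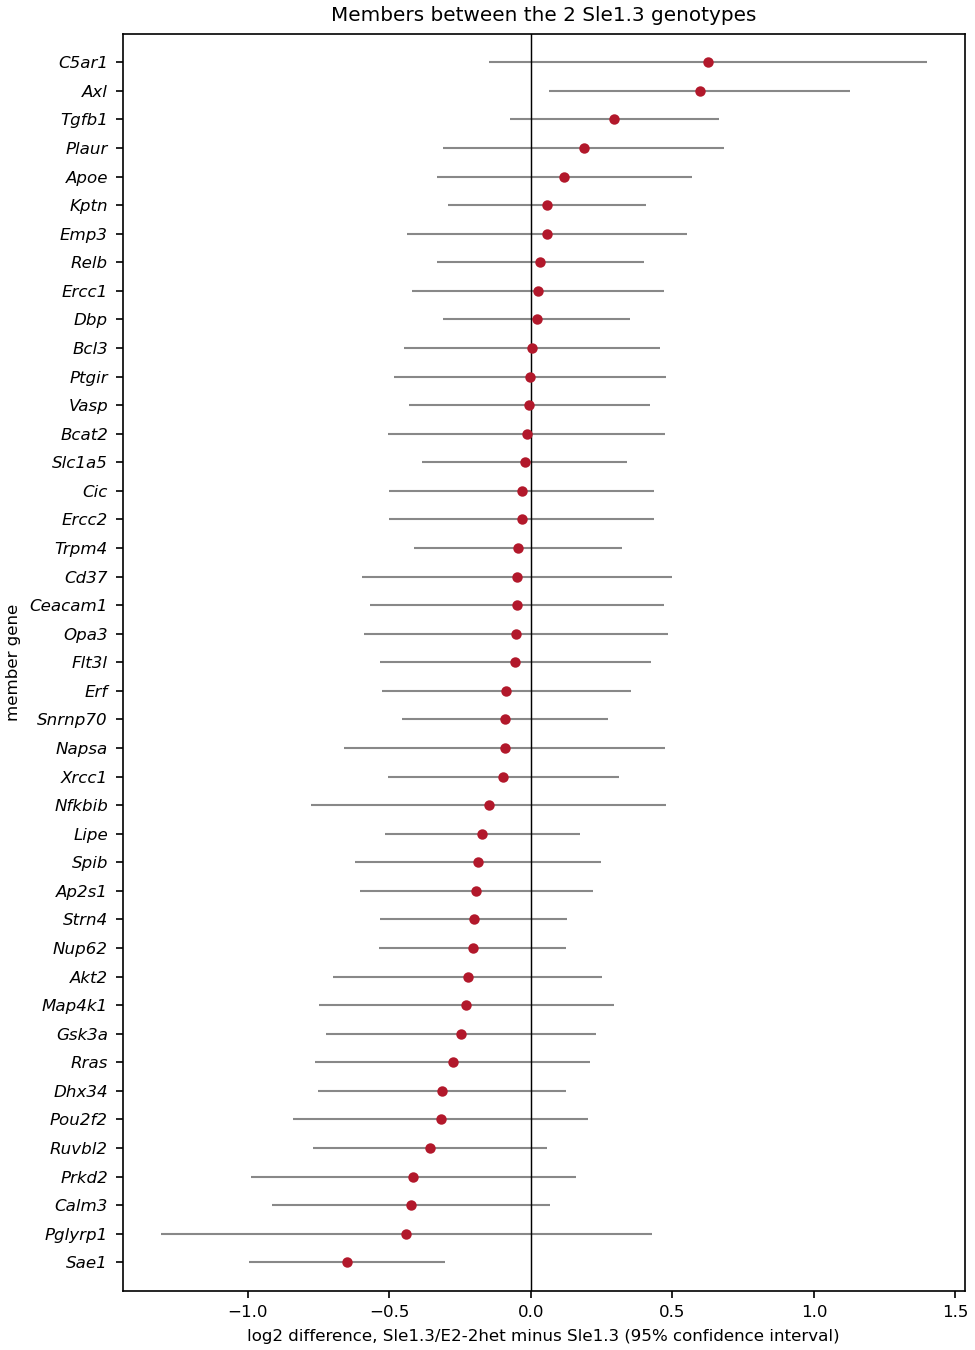
log2 difference for Sle1.3/E2-2het minus Sle1.3 of each of the 43 measured members, ordered by size, with 95% confidence intervals from limma over the 8 arrays. Sae1 (-0.65) and Axl (0.60) are the members whose intervals leave out 0.

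Promoter entries existed for 38 of the 43 measured members, giving 52 promoters of 250 bases before the start. An E box (CANNTG, either strand), the motif bound by E2-2 and other E proteins, was present in 63.5% of the member promoters and in 66.2% of all 32851 promoters in the table. It was found in 2 of the 8 promoters of the 6 called members with an entry, those of Spib and Apoe. Several of the 8 are entries of Apoe alone, and other members such as Akt2 also have several, so promoters are not independent. The GC box (GGGCGG, either strand) was in 53.8% of member promoters, against 32.7% of all, and in 5 of the 8 of called members. Shares for the kappa B motif of NF-κB, which can overlap other G-rich motifs, were 19.2% and 17.6%, for the Ets core CCGGAAG 9.62% and 6.91%, for the octamer ATGCAAAT 3.85% and 1.60%, for CCAAT 30.8% and 33.8%, and for TATAAA 3.85% and 12.4%, in members and in all promoters. The forms CAGCTG and CAGGTG of the E box were each in 15.4% of member promoters, against 13.0% and 17.2% of all. A match in these windows is a description of sequence and not of binding.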

How the data were processed

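The authors deposited linear probe set intensities for 8 arrays (2 WT, 3 Sle1.3, 3 Sle1.3/E2-2het). The submitters' processing notes name RMA and Affymetrix Expression Console, with their roles and the genome build not given in the sources used here. The arrays had not been brought to one distribution: median log2 intensities were 5.93, 5.95 and 6.17 in Sle1.3/E2-2het and 5.87, 5.89 and 6.17 in Sle1.3, against 5.87 and 5.83 in WT. The interquartile ranges of log2 intensity were 2.46, 2.41 and 2.45 in Sle1.3/E2-2het and 2.57, 2.56 and 2.43 in Sle1.3. Those of the WT arrays were wider, at 2.77 and 2.97. Of 35556 rows 21789 carry 1 gene symbol in the platform annotation and 1621 carry several. The number of arrays limits the precision, and no detection calls were used. Gene order, names and promoters came from RefSeq (GRCm38.p6).

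Intensities were taken to log2 without further normalization, with 1 row per gene (highest mean). Genes above the 25th percentile of mean log2 intensity (5.01) were fitted in limma 3.58.1 (R 4.3.3) with group as the only term over all 8 arrays (5 residual degrees of freedom), and p-values were adjusted by Benjamini-Hochberg with a threshold of 0.05. The fitting code was run on simulated data with arrays drawn independently. That run does not show how the fit handles arrays that vary together or the separate replicate 3 arrays. Replicate numbers were taken from the titles. Deviations from the group mean correlated at 0.573, 0.369 and 0.618 between lupus-prone arrays that share a number. Between those with unlike numbers the correlations ran from -0.536 to 0.119. The third pair is also the separate array set. The main fit leaves this pairing out, and blocked counts are given beside it, with the members that the block adds. With WT the same-numbered correlations were 0.151 and 0.160 for Sle1.3/E2-2het and -0.0768 and 0.214 for Sle1.3. Unlike-numbered correlations with WT ran from -0.16 to 0.0111 for Sle1.3/E2-2het and from -0.226 to 0.226 for Sle1.3. For Sle1.3 the highest correlation with WT was thus of unlike numbers.

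Members, roles, marker lists and motifs were chosen with earlier results of these data known. Per-array values are given for the 5 members with the smallest p between the lupus-prone genotypes, for the 12 largest and 4 smallest differences in each comparison with WT, and for Strn4, chosen after its value was seen because it was called. Alternatives were labelled sex, replicate or array set as a block, the 6 arrays without replicate 3, other filters, quantile normalization, median centring, the mean over rows, a trended robust variance, and leaving out each array. The comparisons with WT share the WT arrays.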

Additional observations from a re-analysis of the deposited data

How the results depend on the processing

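In Sle1.3/E2-2het against Sle1.3, 0 members were called in 16 of 18 alternatives, leaving out each array included (0 to 0), and 1, Sae1, with the replicate block and with a block for the array set, at a log2 difference of -0.65 in each. For Sle1.3/E2-2het against WT, 9 members were called as reported, 28 with the replicate block, 27 with a block for the array set, 26 without both replicate 3 arrays, 23 with median centring, 5 with the labelled sex, and 1 to 20 when single arrays were left out. For Sle1.3 against WT, 8 were called as reported, and in the same settings 22, 19, 15, 15, 4 and, without single arrays, 0 to 9. Calls among all genes moved alike: 2 between the lupus-prone genotypes (0 to 262 over the alternatives), 1076 for Sle1.3/E2-2het against WT (5 to 6008) and 879 for Sle1.3 against WT (2 to 4410). The causes were not tested. The 8 members called in both comparisons with WT were all called without both replicate 3 arrays and with quantile normalization, and 4 of them with the labelled sex. The differences of Sae1, Axl, Ruvbl2, Calm3 and C5ar1 between the lupus-prone genotypes kept their sign in all 18 alternatives, while the members' median, -0.05 as reported, did not. With single arrays left out, the members' median ran from -0.23 to 0.02 between the lupus-prone genotypes, from -0.60 to -0.33 for Sle1.3/E2-2het against WT and from -0.38 to -0.18 for Sle1.3 against WT. With 2 or 3 arrays a group, dim rows near the lower end of the scale limit what can be seen.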

Other observations

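Rows of olfactory receptor genes, which are not members, lay above WT on average on chromosome 7. In 2 adjacent bins of 5 Mb on that chromosome, 99 such genes had a median log2 difference of 1.00 in Sle1.3/E2-2het and 0.84 in Sle1.3, at a median level of 5.53, near the bottom of the range tested. The 321 olfactory receptor genes of all other chromosomes had 1.00 and 0.83. After quantile normalization the medians were 0.76 and 0.66 in those bins and 0.74 and 0.63 elsewhere.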
